A study of Mus musculus with 8 samples.

Results

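The 37 genes described here make up the antioxidant defence of the cell: the transcription factor NRF2, encoded by Nfe2l2, with its regulators, enzymes that make and use glutathione, the thioredoxin system, and enzymes that act on superoxide and peroxides. They were chosen by name, and each was read from the probe sets that the platform annotation gives to that gene alone. Of the 37 genes, 34 had such a probe set (66 probe sets in all), and 33 passed the filter on low signals, out of 18193 genes with a probe set and 11564 genes tested. Gsta3, an alpha-class glutathione transferase, stayed below the filter on all 8 arrays, with signals of 9.80 to 46.1 at its brighter probe set, and was not tested. Every probe set listed for Prdx1 names a second gene as well, so none was used, and Prdx5 and Prdx6 have no probe set named here.

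The RNA came from mouse embryonic fibroblasts made immortal with large T antigen and grown at 21% oxygen in high-glucose medium with serum, and it was read on 8 Affymetrix arrays, 2 for each of 4 genotypes. The 3 null genotypes, FIH null, VHL null and then VHL/FIH null, had been derived by Cre, carried by an adenovirus, from 3 separate lines named FIHdf, VHLdf and VHLdf/FIHdf, and wild type cells were the fourth group. FIH, the product of Hif1an, hydroxylates an asparagine of the hypoxia-inducible factors (HIF) and thereby dampens their activity, whereas VHL belongs to the ubiquitin ligase through which HIF alpha subunits are degraded in oxygen. The design asks how loss of either protein, or of both, changes gene expression. Because every null genotype has a parent line of its own, genotype and parent line cannot be told apart, and the labels do not say from which line the wild type cells came or whether they were given the virus. The 2 samples of a genotype are labelled as biological replicates with no word on their embryos or cultures, so the p-values cover the spread between these samples and nothing wider.

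Values are MAS5 signals, a linear brightness per probe set, and their trimmed means were equal on all arrays as deposited. Differences are given on the scale of log2(signal + 16), where 1 stands for doubling of the signal plus that pseudocount, and changes of dim genes are understated. "Rose", "fell", "higher" and "lower" with a test mean an adjusted p below 0.05 in a limma fit of all 8 arrays, with Benjamini-Hochberg adjustment across the 11564 tested genes. Vhl signal was 708 and 754 in VHL null cells and 1061 and 897 in VHL/FIH null cells, against 3269 and 3319.6 in wild type cells. Hif1an signal was 1676 and 1707 in FIH null cells and 1404 and 1169 in VHL/FIH null cells, against 2722 and 3013 in wild type cells. Hif1an was thus lowered in part, where Vhl was lowered further, and it was also lower in VHL null cells than in wild type cells (log2 difference -0.49, adjusted p = 0.00597). Whether these probe sets lie inside the deleted exons was not tested. All 8 fibroblast markers passed the filter, with group means of Col1a1, Col1a2, Vim and Fn1 from 30363 to 112435 and a dim Thy1 (141 to 439.7). Between VHL/FIH null and wild type cells Col3a1 rose (1.15, adjusted p = 4.40e-08), Pdgfra (-2.39, adjusted p = 1.70e-05) and Pdgfrb (-0.86, adjusted p = 8.00e-05) fell, and the other 5 did not pass. In FIH null against wild type cells Col1a1 (0.50, adjusted p = 0.00237) and Col1a2 (0.36, adjusted p = 0.0116) rose. In VHL null against wild type cells Col3a1 (0.86, adjusted p = 8.12e-07) and Pdgfra (0.87, adjusted p = 0.0128) rose. Col1a1 (-0.29, adjusted p = 0.0105) and Pdgfrb (-0.31, adjusted p = 0.0342) fell there. The remaining fibroblast markers did not pass in these 2 comparisons. Of markers of other cell types, 3 of 5 for macrophages and blood (Cd68, Csf1r, Cd14), 1 of 4 for endothelium (Kdr), 2 of 4 for epithelium (Epcam, Krt18) and 1 of 3 for skeletal muscle (Des) passed the filter, and Ptprc, Pecam1, Cdh5, Cdh1, Myod1 and Myog did not. Krt18 fell in VHL null (-1.05, adjusted p = 0.000554) and VHL/FIH null cells (-1.97, adjusted p = 4.83e-06) against wild type cells. The part of other cell types in the results was not tested. In RNA of a whole culture, fewer cells of a type and less RNA per cell cannot be told apart.

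NRF2 is held in the cytoplasm by KEAP1, which hands it to a CUL3 ubiquitin ligase for destruction. Oxidants and electrophiles modify KEAP1, NRF2 then accumulates, pairs with a small MAF protein and binds antioxidant response elements, from which it drives genes of quinone reduction, glutathione synthesis, thioredoxin reduction and xenobiotic conjugation. The competing factor BACH1 represses some of the same genes, Hmox1 among them, and Hmox1 is also known as a gene that responds to HIF.

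Promoter windows from RefSeq (GRCm38.p6) matched 30 of the 37 members, and each runs from before the transcription start to shortly after it. They were searched on both strands for TGACNNNGC, the core of the antioxidant response element, and for ACGTG, a form of the core of the hypoxia response element. Other forms of the hypoxia core were not searched. The motifs do not overlap each other in the windows printed. TGACNNNGC was found in windows of 10 of the 30 members (33.3%), where 14.0% of 27025 genes and 12.4% of 32851 windows held it. ACGTG was found in windows of 9 of the 30, where 21.8% of genes and 19.6% of windows held it. A match is a description of letters and not evidence of binding. Of the 9 members that passed the interaction test below, the 7 with a window are shown, and Hmox1 and Sod3 are named only. Capitals mark the matches on either strand, each line reads 5′ to 3′ along the strand of the gene, and positions are of GRCm38.p6.

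Nqo1 promoter, chr8:107403156-107403455, strand -: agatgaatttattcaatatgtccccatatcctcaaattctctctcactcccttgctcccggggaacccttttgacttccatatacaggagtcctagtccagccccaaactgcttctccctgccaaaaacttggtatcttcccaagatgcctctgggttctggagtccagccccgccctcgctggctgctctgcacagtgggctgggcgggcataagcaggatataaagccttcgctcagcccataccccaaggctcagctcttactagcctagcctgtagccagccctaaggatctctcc

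Gclm promoter, chr3:122245307-122245606, strand +: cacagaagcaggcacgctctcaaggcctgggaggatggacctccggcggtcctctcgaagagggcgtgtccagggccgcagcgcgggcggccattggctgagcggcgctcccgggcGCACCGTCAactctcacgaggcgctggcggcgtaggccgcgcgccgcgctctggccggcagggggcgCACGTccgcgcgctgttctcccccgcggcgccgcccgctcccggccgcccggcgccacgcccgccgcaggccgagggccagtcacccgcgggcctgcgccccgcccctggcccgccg

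Me1 promoter, chr9:86695865-86696164, strand -: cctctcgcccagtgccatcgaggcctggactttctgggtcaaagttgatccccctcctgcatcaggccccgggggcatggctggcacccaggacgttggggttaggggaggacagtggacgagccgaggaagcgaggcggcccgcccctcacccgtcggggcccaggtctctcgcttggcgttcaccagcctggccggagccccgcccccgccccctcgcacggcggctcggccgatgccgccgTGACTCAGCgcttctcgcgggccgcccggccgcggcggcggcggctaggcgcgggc

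Ephx1 promoter, chr1:181017520-181017819, strand -: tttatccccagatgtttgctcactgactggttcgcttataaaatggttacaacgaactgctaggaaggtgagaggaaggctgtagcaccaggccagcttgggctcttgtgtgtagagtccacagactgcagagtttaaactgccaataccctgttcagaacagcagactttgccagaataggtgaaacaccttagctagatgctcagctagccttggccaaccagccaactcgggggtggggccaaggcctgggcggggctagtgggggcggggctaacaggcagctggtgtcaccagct

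Gstt1 promoter, chr10:75797682-75797981, strand -: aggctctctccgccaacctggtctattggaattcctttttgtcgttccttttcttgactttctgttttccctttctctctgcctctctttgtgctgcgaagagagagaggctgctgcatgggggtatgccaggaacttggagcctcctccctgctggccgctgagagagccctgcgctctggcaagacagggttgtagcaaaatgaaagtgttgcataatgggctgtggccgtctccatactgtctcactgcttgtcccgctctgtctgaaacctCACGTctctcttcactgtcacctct

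Gstp1 promoter, chr19:4037863-4038162, strand -: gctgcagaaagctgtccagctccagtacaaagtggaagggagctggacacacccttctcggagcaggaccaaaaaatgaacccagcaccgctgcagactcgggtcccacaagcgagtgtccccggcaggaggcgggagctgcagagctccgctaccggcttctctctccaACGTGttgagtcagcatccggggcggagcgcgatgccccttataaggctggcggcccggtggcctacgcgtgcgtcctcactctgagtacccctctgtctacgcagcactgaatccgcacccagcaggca

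Gpx1 promoter, chr9:108338830-108339129, strand +: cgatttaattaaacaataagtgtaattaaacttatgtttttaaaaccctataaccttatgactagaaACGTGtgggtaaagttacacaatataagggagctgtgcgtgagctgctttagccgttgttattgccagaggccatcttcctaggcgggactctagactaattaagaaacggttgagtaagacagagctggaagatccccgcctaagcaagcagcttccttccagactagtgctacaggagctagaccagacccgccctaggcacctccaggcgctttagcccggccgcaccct

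The Gclm window holds both motifs, the Me1 window holds TGACNNNGC, and the windows of Gstt1, Gstp1 and Gpx1 hold ACGTG. A second Me1 window, of a start further downstream, holds ACGTG. The windows of Nqo1 and Ephx1 hold neither motif, which says only that these letters are not in these windows.

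Across the 33 tested members the genotypes gave different patterns. In FIH null cells against wild type cells 7 members rose and 1 fell, where 1.96% of all tested genes rose and 4.59% fell, and the members' median log2 difference was 0.12, against -0.0025 for all genes. In VHL null cells against wild type cells 7 rose and 9 fell (all genes 15.5% and 28.4%), with a median of -0.055 for members and -0.099 for all genes. In VHL/FIH null cells against wild type cells 10 rose and 8 fell (all genes 17.8% and 23.6%), with a median of 0.0038 for members and -0.050 for all genes. The FIH null comparison had a larger share of members higher than the background, while VHL null and VHL/FIH null cells moved members both ways. The 3 comparisons share the wild type arrays. The shares of all genes given here are also the background for the counts against wild type cells by role and by list below.

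When FIH loss was added to VHL loss, 10 members were higher and 4 lower in VHL/FIH null than in VHL null cells (all genes 22.3% and 15.4%), with a median of 0.083 for members and 0.052 for all genes. When VHL loss was added to FIH loss, 9 members were higher and 12 lower in VHL/FIH null than in FIH null cells (all genes 20.6% and 25.0%), with a median of -0.14 for members and -0.037 for all genes. In all, 26 members passed in at least 1 comparison with wild type, as did 61.2% of all genes, and 7 members passed in none. Only Me1, Nqo1 and Gsta4 passed in all 3 comparisons with wild type.

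Leaving out an array changed the counts. For FIH null against wild type cells, the count of 8 fell to 1 without FIH null replicate 1, to 2 without either wild type replicate and to 3 without FIH null replicate 2, and Nqo1 was the 1 call that held in every such fit. For VHL/FIH null against wild type cells the count of 18 fell to 11 without wild type replicate 1, and the other comparisons between groups stayed within 1.5 times their counts. The spiked hybridization controls (18 probe sets) were brighter than on wild type arrays, by 0.26 on the log2 scale on FIH null arrays, 0.38 on VHL null arrays and 0.52 on VHL/FIH null arrays. Scaling the arrays to these controls moved the median of all genes to -0.26, -0.48 and -0.57 in FIH null cells, VHL null cells and VHL/FIH null cells against wild type cells, and the members' median to -0.14, -0.43 and -0.52. With that scaling 2 members rose and 12 fell in FIH null cells, 3 rose and 25 fell in VHL null cells, and 4 rose and 24 fell in VHL/FIH null cells. Of all 11564 genes, 5105, 8387 and 9136 passed in these comparisons under that scaling, of which 1.37%, 5.13% and 5.55% were higher. The directions below are therefore relative to an equal trimmed mean signal per array, and values that turn sign under the other scaling are given beside the gene. Lost calls are named below mainly for left-out arrays, and some calls were also lost under other settings.

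**Figure D1:**
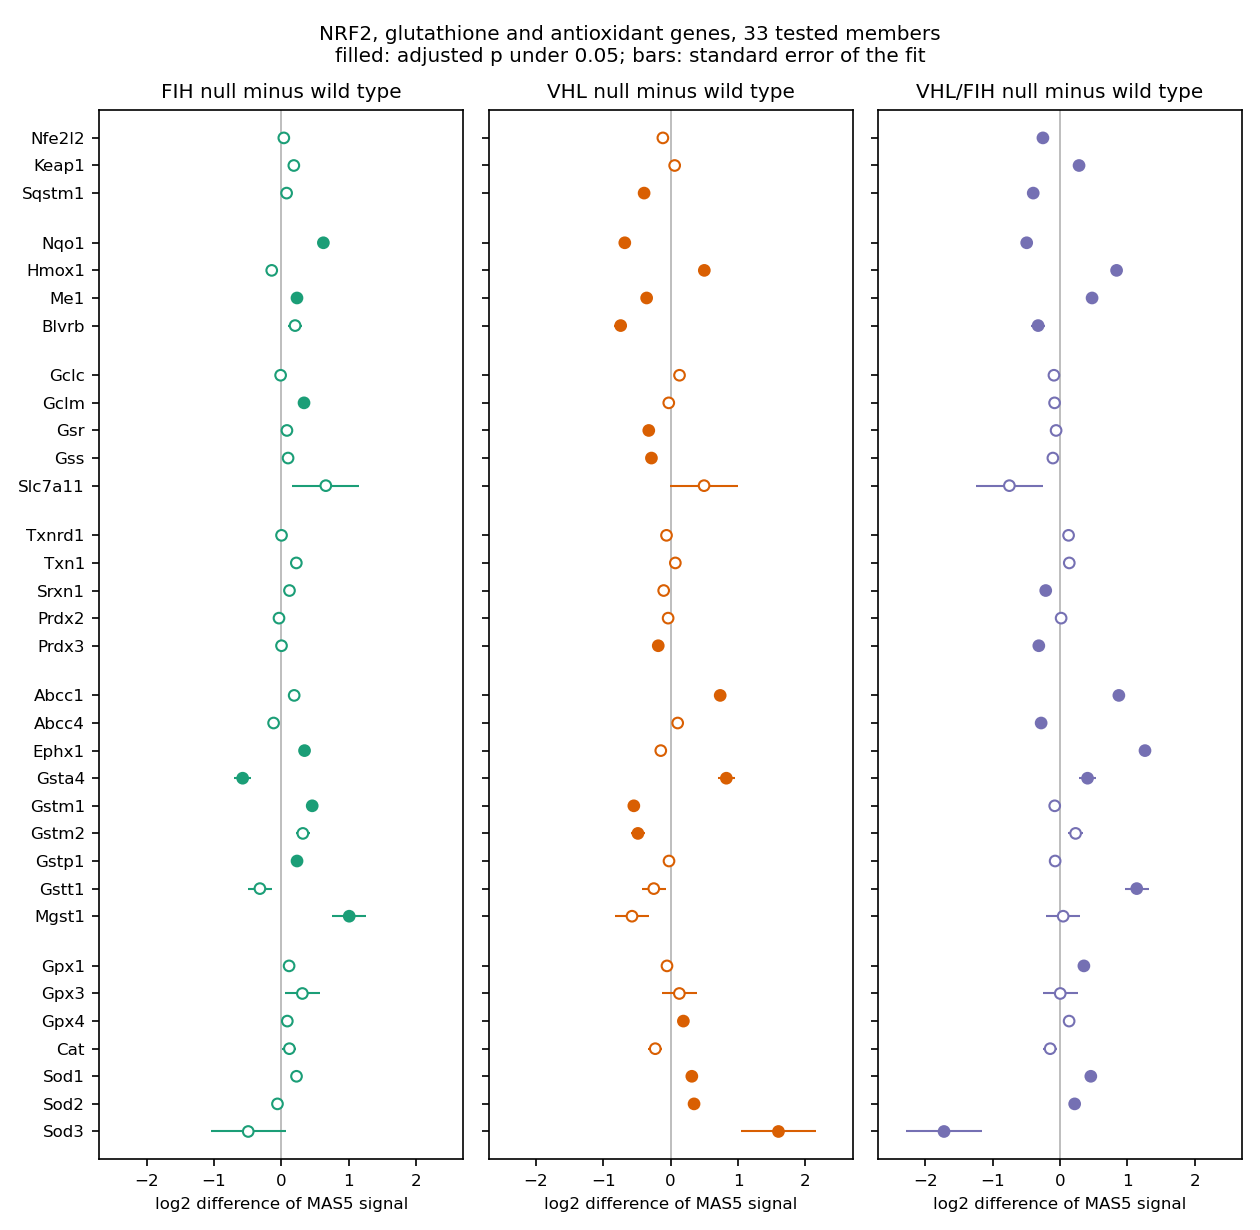
Log2 difference of signal from wild type cells for the 33 tested members, in FIH null (left), VHL null (middle) and VHL/FIH null cells (right), grouped by role; bars are the standard error of the fit and filled points have an adjusted p below 0.05. Most members lie within 0.5 of 0, Nqo1 lies at 0.62, -0.68 and -0.49, and Sod3 lies at 1.60 in VHL null and -1.72 in VHL/FIH null cells.

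Of the 3 tested regulators, none passed in FIH null cells, 1 fell in VHL null cells, and 1 rose and 2 fell in VHL/FIH null cells, against wild type cells, at the probe sets used. At an unadjusted p below 0.05 limma's count in FIH null cells was 0. Nfe2l2, which encodes NRF2, had signals of 12642 and 13016 in FIH null cells, 11578 and 11504 in VHL null cells and 10320.4 and 10662 in VHL/FIH null cells, against 12690.0 and 12322 in wild type cells. Both VHL/FIH null arrays lay below all other arrays, and FIH null and wild type arrays overlapped. Nfe2l2 fell in VHL/FIH null cells against wild type cells (log2 difference -0.25, adjusted p = 0.00374, SE 0.0555) and was lower in VHL/FIH null than in FIH null cells (-0.29, adjusted p = 0.00140). It did not pass in FIH null (0.037, adjusted p = 0.753) or VHL null cells (-0.12, adjusted p = 0.114) against wild type cells.

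Keap1, the gene of the NRF2 inhibitor, had signals of 5569 and 4664 in FIH null cells, 4829 and 4515 in VHL null cells and 5541 and 5369 in VHL/FIH null cells, against 4455 and 4506 in wild type cells. The VHL/FIH null arrays lay above the wild type arrays but overlapped FIH null arrays. The log2 difference of VHL/FIH null from wild type cells was 0.28 (SE 0.0870, adjusted p = 0.0224), which turned to -0.24 under scaling to the hybridization controls, and the call was lost without wild type replicate 1 or 2 or VHL/FIH null replicate 1 or 2 (adjusted p from 0.0508 to 0.0893). Keap1 lies on chromosome 9, whose tested genes had a median difference of 0.18 in this comparison; centring each chromosome also ended the call. A second Keap1 probe set, 1450747_at, rose in VHL/FIH null (0.57, limma's adjusted p = 0.000784) and FIH null cells (0.38, limma's adjusted p = 0.0415) against wild type cells, and it was higher in VHL/FIH null than in VHL null cells (0.36, limma's adjusted p = 0.0124). Sqstm1, whose product p62 binds KEAP1 and carries it to autophagy, fell in VHL null (-0.39, adjusted p = 0.000470) and VHL/FIH null cells (-0.40, adjusted p = 0.000406) against wild type cells, with signals of 19993 to 22325 in these 2 groups, against 27266 to 28393 in wild type cells.

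Of the 4 quinone, haem and NADPH genes, 2 rose in FIH null cells, 1 rose and 3 fell in VHL null cells, and 2 rose and 2 fell in VHL/FIH null cells, against wild type cells. Nqo1 encodes a quinone reductase that is widely used as a readout of NRF2. Its signals were 5694 and 5697 in FIH null cells, 2318 and 2277 in VHL null cells and 2576 and 2659 in VHL/FIH null cells, against 3653 and 3731 in wild type cells. No group overlapped another: FIH null arrays were highest, wild type arrays next, then VHL/FIH null, and VHL null arrays were lowest. Nqo1 rose in FIH null cells by 0.62 (adjusted p = 0.000341, SE 0.0737), and it fell in VHL null cells (-0.68, adjusted p = 4.03e-05) and in VHL/FIH null cells (-0.49, adjusted p = 0.000311), each against wild type cells. It was lower in VHL/FIH null than in FIH null cells (-1.12, adjusted p = 5.52e-07), and the difference from VHL null cells did not pass (0.19, adjusted p = 0.0678). The calls of Nqo1 between groups held in every alternative run other than the 2-fold minimum, which leaves the difference from FIH null cells.

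Hmox1 encodes haem oxygenase, which opens haem to biliverdin, iron and carbon monoxide. Its signals were 6079 and 5977 in FIH null cells, 9278 and 9552 in VHL null cells and 12931 and 10997 in VHL/FIH null cells, against 6489.6 and 6826 in wild type cells. VHL/FIH null arrays lay above VHL null arrays, both above wild type arrays, and FIH null arrays were lowest, with no overlap. Hmox1 rose in VHL null cells (0.50, adjusted p = 0.000441, SE 0.0774) and in VHL/FIH null cells (0.84, adjusted p = 8.70e-06) against wild type cells. It was higher in VHL/FIH null than in VHL null cells (0.34, adjusted p = 0.00539) and than in FIH null cells (0.98, adjusted p = 2.19e-06). In FIH null cells its difference from wild type cells was -0.14 (adjusted p = 0.322). Scaling to the hybridization controls left the rises in VHL null against wild type cells and in VHL/FIH null against VHL null cells positive, at 0.12 and 0.20, but ended both calls.

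Blvrb, which encodes biliverdin reductase B, fell in both VHL-deficient groups against wild type cells, where Hmox1 rose. It had signals of 2695 and 2628 in FIH null cells, 1396 and 1352 in VHL null cells and 1826 and 1854 in VHL/FIH null cells, against 2461 and 2165 in wild type cells. FIH null arrays were highest and VHL null arrays lowest, with no overlap between any of the groups. Blvrb fell in VHL null cells (-0.74, adjusted p = 0.000167, SE 0.0993) and less far in VHL/FIH null cells (-0.32, adjusted p = 0.0219) against wild type cells. The second call was lost without wild type replicate 1 or VHL/FIH null replicate 1 or 2. That call was also lost with quantile normalization, with array medians or each chromosome centred, and with only the compared groups fitted. Blvrb was higher in VHL/FIH null than in VHL null cells (0.42, adjusted p = 0.00692) and lower than in FIH null cells (-0.53, adjusted p = 0.00124). In FIH null against wild type cells it did not pass (0.20, adjusted p = 0.271).

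Me1 encodes cytosolic malic enzyme, a source of NADPH for the reduction of glutathione and thioredoxin. Its signals were 17739 and 18236 in FIH null cells, 12080.3 and 11835 in VHL null cells and 21598 and 21011 in VHL/FIH null cells, against 15539 and 15088 in wild type cells. The groups did not overlap, and VHL/FIH null arrays were highest while VHL null arrays were lowest. Me1 was higher in VHL/FIH null than in VHL null cells (0.83, adjusted p = 7.71e-07, SE 0.0537), and it fell in VHL null against wild type cells (-0.36, adjusted p = 0.000364). It rose in VHL/FIH null against wild type cells (0.48, adjusted p = 4.12e-05), a difference of -0.046 under scaling to the hybridization controls. Its difference between VHL/FIH null and FIH null cells (0.24, adjusted p = 0.00337) turned to -0.019 under that scaling and to -0.0022 when each chromosome was centred, and the genes of chromosome 9, where Me1 lies, had a median of 0.25 there. The rise in FIH null against wild type cells (0.23, adjusted p = 0.0264) was -0.026 under scaling to the hybridization controls and was lost without wild type replicate 1 or 2 or FIH null replicate 1 or 2 (adjusted p from 0.0847 to 0.189). Its second probe set moved the same way, by 0.96 between VHL/FIH null and VHL null cells (limma, adjusted p over probe sets = 3.05e-06).

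**Figure D2:**
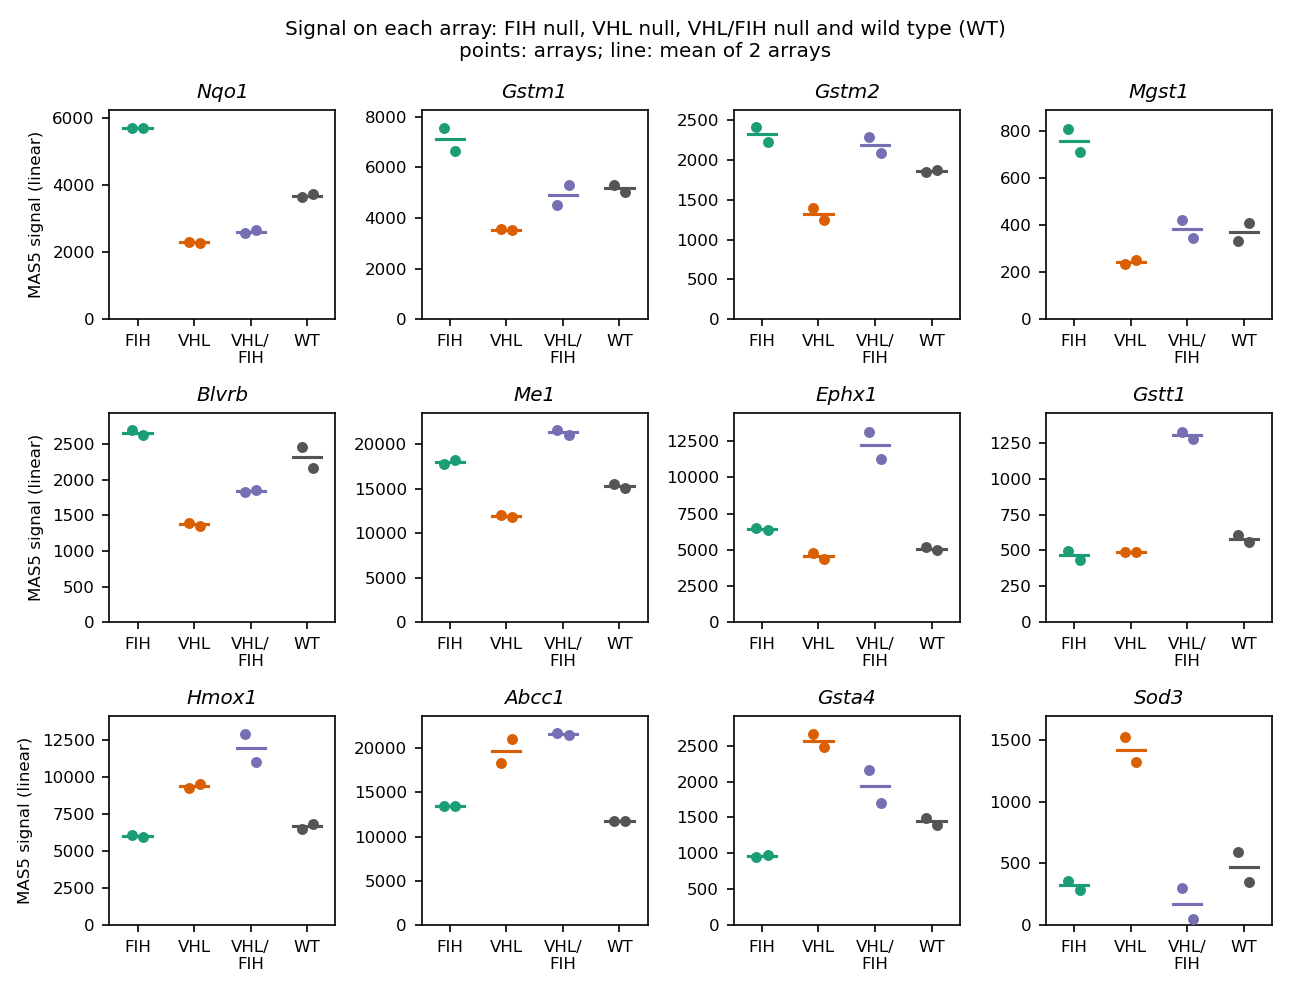
MAS5 signal (linear, from 0) on each array for 12 members, with groups from left to right FIH null, VHL null, VHL/FIH null and wild type (WT); points are arrays and lines are means of 2. Nqo1, Gstm1, Gstm2, Mgst1 and Blvrb have their highest mean in FIH null and their lowest in VHL null cells, Ephx1 and Gstt1 are highest in VHL/FIH null cells, and Hmox1 and Abcc1 are high in both VHL-deficient groups.

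Of the 5 genes of glutathione synthesis and reduction, 1 rose in FIH null cells, 2 fell in VHL null cells and none passed in VHL/FIH null cells, against wild type cells, at the probe sets used. At an unadjusted p below 0.05 limma's count in VHL/FIH null cells was 0. Gclm encodes the modifier subunit of glutamate-cysteine ligase, the first enzyme of glutathione synthesis, and its promoter window is the one above that holds both motifs. Gclm signals were 21697 and 19200.4 in FIH null cells, 15198 and 16528 in VHL null cells and 15226 and 15347 in VHL/FIH null cells, against 15158 and 17233 in wild type cells. Both FIH null arrays lay above all others, and the other 3 groups overlapped. Gclm rose in FIH null cells against wild type cells (0.34, SE 0.0789, adjusted p = 0.0278), but the call was lost without wild type replicate 1 or FIH null replicate 1 (adjusted p from 0.202 to 0.246). It was lower in VHL/FIH null than in FIH null cells (-0.42, adjusted p = 0.00130). A second Gclm probe set, 1439050_at, did not pass in FIH null against wild type cells (0.21, limma's adjusted p = 0.201). That probe set was lower in VHL/FIH null than in FIH null cells (-0.28, limma's adjusted p = 0.0209).

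Gclc, the gene of the catalytic subunit of the same ligase, did not follow. Its signals were 4990.5 and 4936 in FIH null cells, 5303 and 5659 in VHL null cells and 4731 and 4666 in VHL/FIH null cells, against 4808 and 5201 in wild type cells. FIH null and wild type arrays overlapped, and VHL null arrays were highest. In none of the comparisons with wild type did Gclc pass, with log2 differences of -0.011, 0.13 and -0.090 in FIH null cells, VHL null cells and VHL/FIH null cells (SE 0.0710). It was lower in VHL/FIH null than in VHL null cells (-0.22, adjusted p = 0.0302), a call lost without FIH null replicate 1, VHL null replicate 2 or VHL/FIH null replicate 1 or 2 (adjusted p from 0.0501 to 0.164) and with the mean of its 2 probe sets.

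Gss, the glutathione synthetase gene, fell in VHL null cells against wild type cells (-0.29, adjusted p = 0.00638), a call lost without VHL null replicate 2 (adjusted p = 0.0584). It was also lower in VHL/FIH null than in FIH null cells (-0.21, adjusted p = 0.0307), a call lost without FIH null replicate 1 or 2 or VHL/FIH null replicate 1 (adjusted p from 0.0708 to 0.174). Gsr, which encodes glutathione reductase, fell in VHL null against wild type cells (-0.32, adjusted p = 0.00342) and was higher in VHL/FIH null than in VHL null cells (0.27, adjusted p = 0.0117), the second call being lost without VHL null replicate 1 or 2 or VHL/FIH null replicate 1 (adjusted p from 0.0518 to 0.0552). Gsr lies on chromosome 8, whose genes had medians of -0.21 and 0.094 in these comparisons, and centring each chromosome ended both calls. The second Gsr probe set, 1421817_at, fell in VHL null (-0.56, limma's adjusted p = 0.000465) and in VHL/FIH null cells (-0.54, limma's adjusted p = 0.000499) against wild type cells. It did not differ past the threshold between VHL/FIH null and VHL null cells (0.022, limma's adjusted p = 0.868), so the calls of Gsr depend on the probe set. Over the 8 arrays Gss signals ran from 5142 to 7191 and Gsr signals from 5956 to 8039.8.

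Slc7a11 encodes the cystine carrier that supplies cysteine for glutathione. It was dim, with signals of 261 and 316 in FIH null cells, 379.7 and 169 in VHL null cells and 69.1 and 137 in VHL/FIH null cells, against 191 and 162 in wild type cells. Of the 8 arrays, 2 lay above the filter value of 291.1, 1 FIH null and 1 VHL null array, and the replicates of VHL null cells differed widely. Both VHL/FIH null arrays lay below that value, so no size is given for their difference from FIH null cells. The fit called Slc7a11 lower there (adjusted p = 0.0379) and it is 1 of the 12 lower members, but the call was lost without FIH null replicate 1 or 2 or VHL/FIH null replicate 1 (adjusted p from 0.0870 to 0.182). No other comparison between groups passed for Slc7a11.

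Of the 5 thioredoxin system genes, none passed in FIH null cells, 1 fell in VHL null cells and 2 fell in VHL/FIH null cells, against wild type cells. At an unadjusted p below 0.05 limma's count in FIH null cells was 1. Txnrd1 encodes cytosolic thioredoxin reductase. Its signals were 33020.4 and 30492 in FIH null cells, 31223 and 29491 in VHL null cells and 35586 and 33646 in VHL/FIH null cells, against 32276 and 31086 in wild type cells. VHL/FIH null arrays were highest, and the other groups overlapped. Txnrd1 was higher in VHL/FIH null than in VHL null cells by 0.19 (SE 0.0615, adjusted p = 0.0316), a call lost without VHL null replicate 1 or 2 or VHL/FIH null replicate 1 (adjusted p from 0.0534 to 0.183). Other Txnrd1 probe sets fell in VHL null cells (1424486_a_at, -0.31, limma's adjusted p = 0.0123) and rose in VHL/FIH null cells (1424487_x_at, 0.84, limma's adjusted p = 0.0162) against wild type cells. Txn1, the thioredoxin gene, had signals of 89232 to 107718 and passed in no comparison.

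Srxn1 encodes sulfiredoxin, which restores over-oxidized peroxiredoxins. Its signals were 6416 and 6384 in FIH null cells, 5368 and 5588 in VHL null cells and 4983 and 5181 in VHL/FIH null cells, against 5812 and 5959.6 in wild type cells. The groups did not overlap, in the order FIH null, wild type, VHL null and VHL/FIH null from high to low. Srxn1 was lower in VHL/FIH null than in FIH null cells (-0.33, adjusted p = 0.00149, SE 0.0642), and its fall in VHL/FIH null against wild type cells (-0.21, adjusted p = 0.0211) was lost without wild type replicate 1 or 2 or VHL/FIH null replicate 1 (adjusted p from 0.0577 to 0.0966).

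Prdx3, a mitochondrial peroxiredoxin gene, fell in VHL/FIH null cells against wild type cells (-0.31, adjusted p = 0.00110) and was lower there than in FIH null cells (-0.32, adjusted p = 0.000902), with signals of 11479 to 12174 in VHL/FIH null cells, against 14495 to 14908 in wild type cells. Its fall in VHL null cells (-0.18, adjusted p = 0.0216) was lost without wild type replicate 1 or 2 or VHL null replicate 1 or 2 (adjusted p from 0.0515 to 0.112). Prdx2, a cytosolic peroxiredoxin gene, passed in no comparison at the probe set used, which had signals of 38461 to 40542.

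Of the 17 members with several tested probe sets, 15 had probe sets that differed in call in at least 1 comparison between groups, and for Sod1 and Sod2 they were called opposite ways. The same count was not made for all genes, so it is not a trait of these members. A second Prdx2 probe set, 1430979_a_at, had signals of 4618 and 4492 in FIH null cells, 7892 and 7240.1 in VHL null cells and 3703 and 4173 in VHL/FIH null cells, against 7177 and 6942 in wild type cells. At that probe set VHL null and wild type arrays were close, and FIH null and VHL/FIH null arrays lay well below them. Tested over the 24523 probe sets, of which 4.33% passed in FIH null against wild type cells, 35.3% in VHL null against wild type cells, 34.1% in VHL/FIH null against wild type cells, 29.8% in VHL/FIH null against VHL null cells and 38.3% in VHL/FIH null against FIH null cells, it fell in FIH null against wild type cells (-0.63, adjusted p = 0.00108). It also fell in VHL/FIH null against wild type cells (-0.84, adjusted p = 2.37e-05) and was lower in VHL/FIH null than in VHL null cells (-0.94, adjusted p = 1.60e-05). The brighter probe set, 1418506_a_at, moved by -0.035, 0.017 and 0.055 in the same comparisons. This second probe set was singled out after its values were seen.

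Sod1 in VHL/FIH null against VHL null cells was higher at 1451124_at (0.27, limma's adjusted p = 0.0136) and lower at 1435304_at (-0.39, limma's adjusted p = 0.0441). The Sod1 probe set used, 1459976_s_at, did not pass there (0.14, limma's adjusted p = 0.152). For Sod2 the brighter probe set, 1448610_a_at, and the probe set 1417193_at went opposite ways past the threshold. In VHL/FIH null against wild type cells they moved by 0.22 and -0.21 (limma, adjusted p = 0.0399 and adjusted p = 0.0296). In VHL/FIH null against FIH null cells they moved by 0.28 and -0.24 (limma, adjusted p = 0.0124 and adjusted p = 0.0137). The direction of Sod2 therefore depends on which probe set is read.

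**Figure D3:**
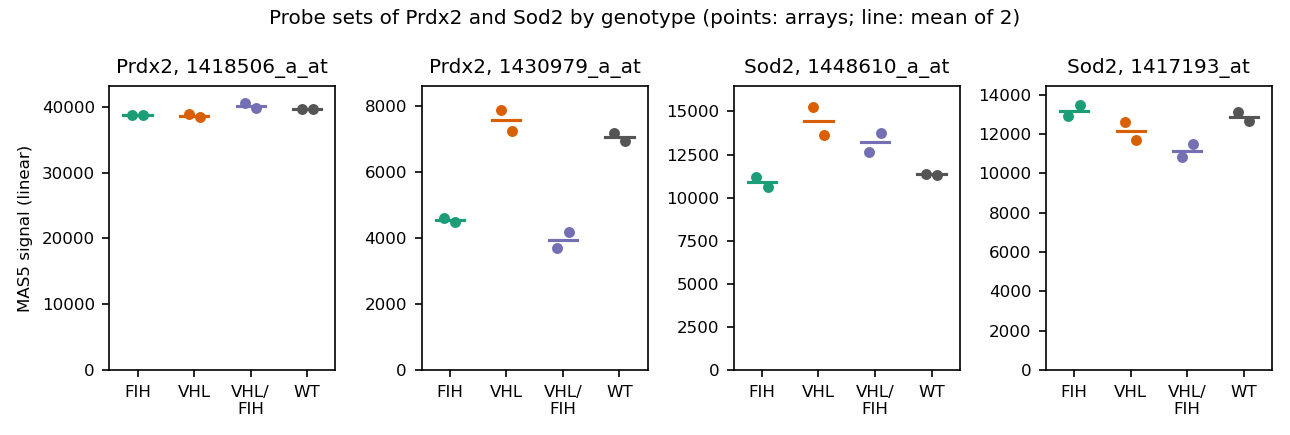
MAS5 signal (linear, from 0) on each array at 2 probe sets each of Prdx2 and Sod2, with groups from left to right FIH null, VHL null, VHL/FIH null and wild type (WT); points are arrays and lines are means of 2. Prdx2 is level at 1418506_a_at and low in FIH null and VHL/FIH null cells at 1430979_a_at, and VHL/FIH null arrays of Sod2 lie above wild type at 1448610_a_at and below it at 1417193_at.

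Among the conjugation and export genes 9 were tested, of which 4 rose and 1 fell in FIH null cells, 2 rose and 2 fell in VHL null cells, and 4 rose and 1 fell in VHL/FIH null cells, against wild type cells. Gstm1 encodes a mu-class glutathione transferase, an enzyme that joins glutathione to electrophiles. Its signals were 7568 and 6658 in FIH null cells, 3547 and 3515 in VHL null cells and 4524 and 5287 in VHL/FIH null cells, against 5302 and 5030.2 in wild type cells. FIH null arrays were highest, VHL null arrays lowest, and VHL/FIH null and wild type arrays overlapped. Gstm1 rose in FIH null cells (0.46, adjusted p = 0.0111, SE 0.0901) and fell in VHL null cells (-0.55, adjusted p = 0.000648) against wild type cells, and the first call was lost without wild type replicate 2 or FIH null replicate 1 (adjusted p from 0.0851 to 0.132). In VHL/FIH null cells it was higher than in VHL null cells (0.47, adjusted p = 0.00198), lower than in FIH null cells (-0.54, adjusted p = 0.000585), and not past the threshold against wild type cells (-0.078, adjusted p = 0.518).

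Gstm2, a second mu-class gene, had signals of 2412 and 2231 in FIH null cells, 1396 and 1250.5 in VHL null cells and 2287 and 2083 in VHL/FIH null cells, against 1844 and 1869 in wild type cells. VHL null arrays were lowest, wild type arrays next, and FIH null and VHL/FIH null arrays overlapped above them. Gstm2 fell in VHL null against wild type cells (-0.49, SE 0.105, adjusted p = 0.00348) and was higher in VHL/FIH null than in VHL null cells (0.72, adjusted p = 0.000359). Mu-class genes are close in sequence, and the Gstm1 probe set used is of the kind that may bind related transcripts. The Gstm1 probe set 1448330_at, which is not of that kind, moved by 0.51 in FIH null and -0.48 in VHL null cells against wild type cells.

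Ephx1 encodes microsomal epoxide hydrolase, which opens epoxides to diols. Its signals were 6478 and 6391 in FIH null cells, 4783 and 4374 in VHL null cells and 13141 and 11257 in VHL/FIH null cells, against 5184 and 4949.8 in wild type cells. The VHL/FIH null arrays were far above all others, and VHL null arrays were the lowest. Ephx1 rose in VHL/FIH null cells against wild type cells (1.26, SE 0.0820, adjusted p = 5.54e-07), and it was higher there than in VHL null (1.41, adjusted p = 3.36e-07) and FIH null cells (0.92, adjusted p = 6.04e-06). These 3 calls held in every alternative run, except that the difference from FIH null cells is under the 2-fold minimum. In FIH null cells it rose by 0.34 (adjusted p = 0.0301) against wild type cells, a call lost without wild type replicate 1 or 2 or FIH null replicate 1 or 2 (adjusted p from 0.0866 to 0.170), and in VHL null cells it did not pass (-0.15, adjusted p = 0.170).

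Gstt1, a theta-class glutathione transferase gene, shared the high level in VHL/FIH null cells. Its signals were 494 and 436 in FIH null cells, 487 and 487 in VHL null cells and 1326 and 1276 in VHL/FIH null cells, against 609.7 and 556 in wild type cells. VHL/FIH null arrays stood alone, above wild type arrays, and FIH null and VHL null arrays overlapped at the low end. Gstt1 was higher in VHL/FIH null cells than in wild type (1.14, SE 0.176, adjusted p = 0.000393), VHL null (1.39, adjusted p = 0.000129) and FIH null cells (1.46, adjusted p = 5.67e-05). In FIH null and VHL null cells alone it did not pass against wild type cells (-0.32, adjusted p = 0.334 and -0.25, adjusted p = 0.273). Gstt3, another theta-class gene on chromosome 10 and no member of the group, was also higher in VHL/FIH null than in VHL null cells (1.53, adjusted p = 3.32e-05).

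Gsta4 encodes an alpha-class transferase that acts on the lipid aldehyde 4-hydroxynonenal. Its signals were 954 and 975 in FIH null cells, 2657 and 2489 in VHL null cells and 2167 and 1705 in VHL/FIH null cells, against 1497 and 1393 in wild type cells. No group overlapped another, with VHL null arrays highest and FIH null arrays lowest, the opposite of Gstm1. Gsta4 rose in VHL null against wild type cells (0.83, SE 0.127, adjusted p = 0.000422) and was higher in VHL/FIH null than in FIH null cells (0.98, adjusted p = 9.29e-05). Its fall in FIH null against wild type cells (-0.57, adjusted p = 0.0215) was lost without wild type replicate 1 or 2 or FIH null replicate 1 or 2 (adjusted p from 0.0696 to 0.130). Its rise in VHL/FIH null against wild type cells (0.41, adjusted p = 0.0236) turned to -0.11 under scaling to the hybridization controls and was lost without wild type replicate 1 or 2 or VHL/FIH null replicate 1 (adjusted p from 0.0544 to 0.176), and the difference from VHL null cells (-0.42, adjusted p = 0.0240) was lost without VHL null replicate 1 or 2 or VHL/FIH null replicate 2 (adjusted p from 0.0626 to 0.166).

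Mgst1, which encodes a membrane-bound glutathione transferase, had signals of 805 and 709 in FIH null cells, 233 and 251 in VHL null cells and 419.5 and 345 in VHL/FIH null cells, against 333 and 406 in wild type cells. FIH null arrays were highest, VHL null arrays were below the filter value, and VHL/FIH null and wild type arrays overlapped. Mgst1 rose in FIH null against wild type cells (1.01, SE 0.250, adjusted p = 0.0363), a call lost without wild type replicate 1 or 2 or FIH null replicate 1 or 2 (adjusted p from 0.0880 to 0.235), and it was lower in VHL/FIH null than in FIH null cells (-0.96, adjusted p = 0.00887), a call lost without FIH null replicate 1 or VHL/FIH null replicate 2 (adjusted p from 0.0527 to 0.0702). Gstp1, the pi-class transferase gene, was bright (42574 to 54619). It was lower in VHL/FIH null than in FIH null cells (-0.30, adjusted p = 0.00121), and its rise in FIH null against wild type cells (0.23, adjusted p = 0.0344) turned to -0.025 under scaling to the hybridization controls and was lost without wild type replicate 1 or 2, FIH null replicate 1 or 2 or VHL null replicate 1 or 2 (adjusted p from 0.0508 to 0.205).

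Abcc1 encodes MRP1, a pump that exports glutathione conjugates. Its signals were 13465 and 13436 in FIH null cells, 18349 and 20989.6 in VHL null cells and 21727 and 21486 in VHL/FIH null cells, against 11800.0 and 11774 in wild type cells. All 4 VHL-deficient arrays lay above all FIH null arrays, which lay above wild type arrays. Abcc1 rose in VHL null (0.73, SE 0.0659, adjusted p = 1.11e-05) and VHL/FIH null cells (0.87, adjusted p = 1.82e-06) against wild type cells, and was higher in VHL/FIH null than in FIH null cells (0.68, adjusted p = 1.06e-05). These calls held in every alternative run other than the 2-fold minimum, which all 3 fall short of. A second Abcc1 probe set, 1421378_s_at, also rose in VHL null (0.54, limma's adjusted p = 0.000640) and VHL/FIH null cells (0.53, limma's adjusted p = 0.000661) against wild type cells. Unlike the probe set used, it rose in FIH null against wild type cells (0.36, limma's adjusted p = 0.0360). It did not pass between VHL/FIH null and FIH null cells (0.17, limma's adjusted p = 0.123). The related pump gene Abcc4 went the other way in VHL/FIH null cells, lower than in wild type (-0.28, adjusted p = 0.00919) and VHL null cells (-0.38, adjusted p = 0.00169). The first call was lost without wild type replicate 1, and also with array medians or each chromosome centred.

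Of the 7 enzymes that act on superoxide and peroxides, 4 rose and none fell in VHL null against wild type cells (all genes 15.5% and 28.4%). In VHL/FIH null against wild type cells 3 rose and 1 fell (all genes 17.8% and 23.6%). In FIH null cells limma passed none of the 7, and 1 had an unadjusted p below 0.05. The 4 rises in VHL null cells each turned sign under scaling to the hybridization controls or were lost without a single array, as given below. Sod1 encodes the cytosolic copper and zinc superoxide dismutase. It rose in VHL null (0.31, adjusted p = 0.00360) and VHL/FIH null cells (0.46, adjusted p = 0.000318), differences that turned to -0.063 and -0.064 under scaling to the hybridization controls. Sod1 was also higher in VHL/FIH null than in FIH null cells (0.23, adjusted p = 0.0168), which turned to -0.031 under that scaling and was lost without FIH null replicate 1 or VHL/FIH null replicate 1 (adjusted p from 0.0682 to 0.159).

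Sod2, the mitochondrial manganese enzyme, rose at the probe set used in VHL null (0.35, adjusted p = 0.00229) and VHL/FIH null cells (0.22, adjusted p = 0.0277) against wild type cells. These differences were -0.030 and -0.30 under scaling to the hybridization controls and -0.041 and -0.12 as means over its probe sets. The second call was lost without wild type replicate 1 or 2 or VHL/FIH null replicate 2 (adjusted p from 0.0878 to 0.149). Its difference between VHL/FIH null and FIH null cells (0.28, adjusted p = 0.00780) was -0.023 as a mean over probe sets and was lost without FIH null replicate 2 or VHL/FIH null replicate 2 (adjusted p from 0.0538 to 0.0703).

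Sod3, the secreted superoxide dismutase, had the largest fitted difference of the 33 members, that between VHL/FIH null and VHL null cells, at low signals. These were 359.5 and 288 in FIH null cells, 1524 and 1327 in VHL null cells and 298 and 50.1 in VHL/FIH null cells, against 596 and 352 in wild type cells. VHL null arrays lay far above all others, while the VHL/FIH null replicates differed widely, and 1 of them and 1 FIH null array lay below the filter value. Sod3 was lower in VHL/FIH null than in VHL null cells (-3.32, SE 0.558, adjusted p = 0.000850), a call that held in every alternative run, with values from -4.44 to -2.20. Its rise in VHL null (1.60, adjusted p = 0.0374) was lost without wild type replicate 1 or 2 or VHL null replicate 1 or 2 (adjusted p from 0.0547 to 0.190), and its fall in VHL/FIH null cells (-1.72, adjusted p = 0.0287) was lost without wild type replicate 1, VHL null replicate 1 or VHL/FIH null replicate 2 (adjusted p from 0.0508 to 0.189), both against wild type cells. Its second probe set, 1417634_at, was also lower in VHL/FIH null than in VHL null cells (-2.55, limma's adjusted p = 0.00163). Against wild type cells that probe set rose in VHL null cells (1.55, limma's adjusted p = 0.0198). It did not pass in VHL/FIH null against wild type cells (-1.01, limma's adjusted p = 0.103).

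Gpx1, the main cytosolic glutathione peroxidase, had signals of 34248 and 33428 in FIH null cells, 31094 and 29104 in VHL null cells and 40933 and 38994 in VHL/FIH null cells, against 31312 and 31173 in wild type cells. VHL/FIH null arrays were highest without overlap, and VHL null and wild type arrays were close. Gpx1 was higher in VHL/FIH null cells than in wild type (0.35, SE 0.0560, adjusted p = 0.000450; -0.17 under scaling to the hybridization controls) and VHL null cells (0.41, adjusted p = 0.000214). Its difference from FIH null cells (0.24, adjusted p = 0.00479) was -0.024 under that scaling and -0.0066 with each chromosome centred. Gpx1 lies on chromosome 9, whose genes had medians of 0.18, 0.17 and 0.25 in these 3 comparisons. Gpx4, which reduces lipid peroxides, rose in VHL null against wild type cells by 0.19 (adjusted p = 0.0353), which turned to -0.19 under scaling to the hybridization controls and was lost without wild type replicate 1 or 2 or VHL null replicate 1 or 2 (adjusted p from 0.0549 to 0.201). Gpx3, the secreted peroxidase, stayed near the filter value (314 to 492), and it and the catalase gene Cat (11287 to 16193) passed in no comparison at the probe sets used. A second Cat probe set, 1416430_at, fell in VHL null (-0.51, limma's adjusted p = 0.000328) and VHL/FIH null cells (-0.25, limma's adjusted p = 0.0172) against wild type cells. There VHL/FIH null cells were higher than VHL null (0.26, limma's adjusted p = 0.0150) and lower than FIH null cells (-0.27, limma's adjusted p = 0.0110).

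The interaction is the VHL/FIH null minus VHL null difference less the FIH null minus wild type difference. As every null genotype has its own parent line, the interaction cannot tell VHL status and parent line apart. It passed for 5 members with a positive and 4 with a negative sign, where 13.4% and 8.47% of all genes did, and the members' median was -0.072, against 0.064 for all genes. Ephx1 had an interaction of 1.06 (SE 0.116, adjusted p = 0.000117), where FIH loss came with a difference of 1.41 in VHL-deficient and 0.34 in VHL-proficient cells. For Gstt1 it was 1.71 (SE 0.249, adjusted p = 0.000801), from 1.39 and -0.32. For Me1 it was 0.60 (SE 0.0760, adjusted p = 0.000296), from 0.83 and 0.23, where the genes of chromosome 9 had a median interaction of 0.26. These 3 held in every alternative run, except that the value of Me1 is under the 2-fold minimum.

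For Nqo1 the interaction was negative (-0.44, adjusted p = 0.0124), from 0.19 in VHL-deficient and 0.62 in VHL-proficient cells, and it was lost without FIH null replicate 1 (adjusted p = 0.0523). Hmox1 had a positive one (0.48, adjusted p = 0.00948), from 0.34 and -0.14, which held whichever array was left out. Gclm (-0.39, adjusted p = 0.0291) lost the call without wild type replicate 1, FIH null replicate 1, VHL null replicate 2 or VHL/FIH null replicate 1 or 2 (adjusted p from 0.0522 to 0.125). Gstp1 (-0.28, adjusted p = 0.0294) lost it without wild type replicate 1 or 2, FIH null replicate 1 or 2, VHL null replicate 1 or VHL/FIH null replicate 2 (adjusted p from 0.0541 to 0.115). Gpx1, on chromosome 9, (0.29, adjusted p = 0.0216) lost it without wild type replicate 1 or 2, FIH null replicate 1 or 2 or VHL null replicate 2 (adjusted p from 0.0580 to 0.0869), and with each chromosome centred. Sod3 (-2.83, adjusted p = 0.0257) lost it without wild type replicate 2, FIH null replicate 1 or VHL null replicate 1 or 2. At the second probe sets of Gclm, 1439050_at (-0.26, limma's adjusted p = 0.161), and Sod3, 1417634_at (-0.83, limma's adjusted p = 0.410), the interaction did not pass. The count of 9 fell to 4 without FIH null replicate 1 and to 6 without either wild type replicate.

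**Figure D4:**
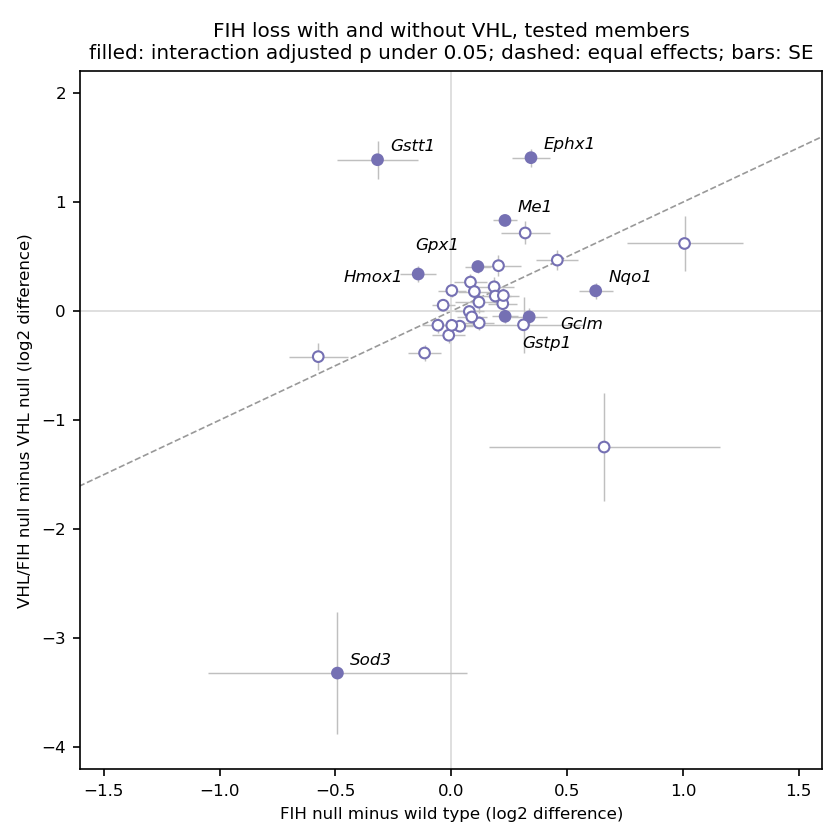
Log2 difference with FIH loss in VHL-deficient cells (VHL/FIH null minus VHL null, vertical) against that in VHL-proficient cells (FIH null minus wild type, horizontal) for the 33 tested members; bars are standard errors, the dashed line marks equal differences, and filled points have an interaction with adjusted p below 0.05. Ephx1 (1.41 against 0.34), Gstt1 and Me1 lie above the line, and Nqo1 (0.19 against 0.62) and Sod3 lie below it.

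Other genes of the pathway were read from lists of 83 genes, 79 with a probe set and 73 tested. Against wild type cells 5 of the 73 rose and 5 fell in FIH null cells, 17 rose and 22 fell in VHL null cells, and 19 rose and 26 fell in VHL/FIH null cells. In VHL/FIH null cells 20 were higher and 17 lower than in VHL null cells (all genes 22.3% and 15.4%). Against FIH null cells 16 were higher and 26 lower (all genes 20.6% and 25.0%). The medians of the 3 comparisons with wild type were 0.026, -0.058 and -0.12 in FIH null cells, VHL null cells and VHL/FIH null cells, against -0.0025, -0.099 and -0.050 for all genes.

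Of 11 tested regulators of NRF2, 1 rose and none fell in FIH null cells, 3 rose and 3 fell in VHL null cells, and 3 rose and 4 fell in VHL/FIH null cells against wild type cells. Maff, one of the small MAF partners of NRF2, rose in VHL null (1.19, adjusted p = 3.13e-05) and VHL/FIH null cells (0.99, adjusted p = 8.83e-05). Nfe2l1, a relative of NRF2 that binds the same elements, fell in VHL null (-0.98, adjusted p = 0.000164) and VHL/FIH null cells (-0.95, adjusted p = 0.000182). Bach1 was 0.24 higher in VHL/FIH null than in wild type cells (adjusted p = 0.0161), a difference of -0.28 under scaling to the hybridization controls, and the call was lost without wild type replicate 2 or VHL/FIH null replicate 2 (adjusted p from 0.103 to 0.107). Its relative Bach2 rose in FIH null cells (0.39, adjusted p = 0.0422), a call lost without wild type replicate 1 or 2, FIH null replicate 1 or 2 or VHL null replicate 1 or 2 (adjusted p from 0.0527 to 0.248).

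Of 15 tested genes described as further NRF2 targets, 1 rose in FIH null cells, 3 rose and 7 fell in VHL null cells, and 4 rose and 6 fell in VHL/FIH null cells against wild type cells. Ptgr1, a reductase of lipid-derived enals and ketones, was the 1 that rose in FIH null cells (0.30, adjusted p = 0.00956), a call lost without wild type replicate 2 or FIH null replicate 1 or 2 (adjusted p from 0.0731 to 0.0852), and it was higher in VHL/FIH null than in VHL null cells (0.61, adjusted p = 1.54e-05). Ugdh, which makes the UDP-glucuronate used in conjugation, rose in VHL null (0.85, adjusted p = 5.86e-06) and VHL/FIH null cells (0.70, adjusted p = 1.69e-05), as did the carbonyl reductase gene Cbr3 (0.67, adjusted p = 0.000155, and 1.03, adjusted p = 4.86e-06). Idh1, the cytosolic isocitrate dehydrogenase that yields NADPH, fell in both (-1.28, adjusted p = 3.29e-06, and -1.25, adjusted p = 2.49e-06).

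Of 24 further glutathione genes, 1 rose and 2 fell in FIH null cells, 4 rose and 5 fell in VHL null cells, and 4 rose and 11 fell in VHL/FIH null cells against wild type cells. Cth, which makes cysteine from cystathionine, and Chac1, which degrades glutathione, fell in VHL null cells (-0.67, adjusted p = 0.000499 and -0.66, adjusted p = 6.08e-05). Gpx8, a peroxidase of the endoplasmic reticulum, rose in VHL/FIH null cells (0.65, adjusted p = 7.18e-06), and the omega-class transferase gene Gsto1 fell (-0.59, adjusted p = 2.13e-05). Glo1, whose enzyme acts on methylglyoxal bound to glutathione, fell in FIH null cells (-0.35, adjusted p = 0.00574), a call lost without wild type replicate 1 or FIH null replicate 2 (adjusted p from 0.0568 to 0.0629). In VHL/FIH null cells Glo1 rose (0.50, adjusted p = 7.82e-05; -0.019 under scaling to the hybridization controls), while Hagh, which acts next in that pathway, fell (-0.60, adjusted p = 5.99e-05).

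Of 23 further thioredoxin, glutaredoxin and repair genes, 2 rose and 3 fell in FIH null cells, 7 rose and 7 fell in VHL null cells, and 8 rose and 5 fell in VHL/FIH null cells against wild type cells. Txnip encodes the thioredoxin-interacting protein, which binds and inhibits thioredoxin, and it moved further than any of the 33 tested members in the comparisons of VHL null and VHL/FIH null cells with wild type cells. Its signals were 2861 and 2658 in FIH null cells, 10220.4 and 9278 in VHL null cells and 13642 and 12183 in VHL/FIH null cells, against 2583 and 2646 in wild type cells. All VHL-deficient arrays lay above all others, and Txnip rose in VHL null (1.89, adjusted p = 3.23e-08) and VHL/FIH null cells (2.29, adjusted p = 4.49e-09). The metallothionein gene Mt2 rose in VHL null cells (1.28, adjusted p = 7.56e-06) and fell in FIH null cells (-0.47, adjusted p = 0.0264), the second call being lost without wild type replicate 1 or 2, FIH null replicate 1 or 2 or VHL null replicate 1 or 2 (adjusted p from 0.0549 to 0.163), and Mt1 rose in VHL/FIH null cells (0.95, adjusted p = 1.76e-05). Sesn3, a sestrin gene, fell in FIH null (-1.11, adjusted p = 0.000300) and VHL/FIH null cells (-0.96, adjusted p = 0.000146). The methionine sulfoxide reductase gene Msrb3 fell in VHL null against wild type cells (-0.78, adjusted p = 6.33e-06) and was higher in VHL/FIH null than in VHL null cells (0.82, adjusted p = 3.85e-06).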

How the data were processed

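The authors deposited 1 linear signal intensity for each of 45101 probe sets (64 of them controls) on each array. Per the submitters' processing notes these come from MAS5; version and settings are not given in the sources used here. Trimmed means (2% off each end) were equal on all arrays, so nothing was normalized further. Array medians ran from 281.7 to 307.5, and the number of arrays limits the precision.

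Kept were 34945 probe sets with a single gene symbol, while 932 with several symbols and 9160 with none were dropped. Symbols and chromosomes were updated through Entrez gene numbers. Only probe sets that exceeded 291.1 (the overall median) on 2 arrays or more were tested, which left 24523, and the brightest of these stood for its gene. Signals were taken as log2(signal + 16). Limma 3.58.1 under R 4.3.3 estimated group means from all 8 arrays with lmFit and eBayes (variance trend on), for 6 contrasts, two-sided, with Benjamini-Hochberg adjustment over genes. The script was tested on simulated data.

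The members, the lists and the tests were chosen with earlier results of these data known. Per-array signals are given for Nfe2l2, Keap1, Nqo1, Hmox1, Gclc, Gclm, Slc7a11, Srxn1, Txnrd1 and members that passed between 2 groups with a difference of at least 0.5; Gpx1 and Txnip were added after their values were seen. Of other lists, a selection of the genes with the smallest p per direction is named. The settings varied were the pseudocount (1 or 64), the filter (none, or a value of 2454), the scaling (quantile, array medians, chromosome medians, hybridization controls), the variance trend, weights for arrays, fitting just the groups compared, averaging probe sets, dropping _x_ and _s_ probe sets, blocking by replicate number, dropping 1 array at a time, and a 2-fold minimum. Replicate numbers did not pair samples: over 6 pairs of groups, the deviations of same-numbered arrays had correlations of -0.0157 to 0.0318.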

Additional observations from a re-analysis of the deposited data

Results flagged for a closer look

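The difference that came with FIH loss was not the same in VHL-deficient and VHL-proficient cells for 9 of the 33 tested members, by limma's interaction test. Of all genes, 13.4% passed with a positive and 8.47% with a negative sign. Several of these calls of members were lost when a single array was left out, as given above. Each value is the VHL/FIH null minus VHL null difference less the FIH null minus wild type difference, on the log2 scale. It was positive for Gstt1 (1.71, adjusted p = 0.000801), Ephx1 (1.06, adjusted p = 0.000117), Me1 (0.60, adjusted p = 0.000296), Hmox1 (0.48, adjusted p = 0.00948) and Gpx1 (0.29, adjusted p = 0.0216). It was negative for Sod3 (-2.83, adjusted p = 0.0257), Nqo1 (-0.44, adjusted p = 0.0124), Gclm (-0.39, adjusted p = 0.0291) and Gstp1 (-0.28, adjusted p = 0.0294). At the second probe sets of Sod3 (-0.83, limma's adjusted p = 0.410) and Gclm (-0.26, limma's adjusted p = 0.161) the interaction did not pass. The differences of Hmox1 and Gstt1 with FIH loss had opposite signs with and without VHL, at 0.34 and 1.39 in VHL-deficient cells and -0.14 and -0.32 in VHL-proficient cells, the last 2 not past the threshold. Those of Gclm and Gstp1 also had opposite signs. They were -0.052 and -0.047 in VHL-deficient cells, not past the threshold, and 0.34 and 0.23 in VHL-proficient cells. Groups of 2 arrays are too small for a test of single outlying arrays.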

How the results depend on the processing

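Of 86 calls of members over the 6 comparisons, 41 held under every alternative other than the 2-fold minimum and 54 whichever array was left out. The fit with the replicate block lost none of the 86 and gave counts of 10, 17, 21, 15, 24 and 9, against 8, 16, 18, 14, 21 and 9, in the order FIH null minus wild type, VHL null minus wild type, VHL/FIH null minus wild type, VHL/FIH null minus VHL null, VHL/FIH null minus FIH null, and the interaction. Leaving out 1 array gave counts from 1 to 9, 12 to 16, 11 to 18, 11 to 15, 18 to 21 and 4 to 9 in the same order. A change of at least 2-fold left 1, 1, 3, 3, 3 and 3. For FIH null minus wild type, no filter gave 5, median centring 13, no variance trend 2 and scaling to hybridization controls 14 (2 higher, 12 lower). Of all genes, 758 passed there in the main fit (29.9% higher) and 1426 with median centring (71.2% higher). Without the variance trend 421 passed, and with no filter 569 of 18193. Scaling to hybridization controls gave 28 (3 and 25) for VHL null and 28 (4 and 24) for VHL/FIH null minus wild type. It gave 16 (6 and 10) against VHL null and 26 (5 and 21) against FIH null cells, and 7 positive and 1 negative interactions. Of the calls over all genes, 31.6%, 16.1% and 80.8% were higher or positive in these last comparisons. Median centring gave 14 higher and 5 lower for VHL/FIH null minus wild type and 4 positive and 9 negative interactions, and centring per chromosome gave 9 and 6 for VHL null minus wild type, 8 and 6 for VHL/FIH null minus VHL null and 4 and 7 interactions. No variance trend gave 4 interactions. Over all genes, median centring moved the share of higher calls for VHL/FIH null minus wild type from 43.0% to 55.3%. Centring per chromosome moved it from 35.3% to 51.7% for VHL null minus wild type and from 59.1% to 50.6% for VHL/FIH null minus VHL null. For the interaction the share was 61.4% in the main fit, 40.4% with median centring and 51.4% with each chromosome centred. Quantile normalization also moved the share of members' interactions, to 7 positive and 3 negative (all genes 57.9% positive).

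Scaling to hybridization controls reversed, for FIH null minus wild type, Me1 (-0.026), Gstp1 (-0.025) and Txnl1 (-0.036). For VHL null minus wild type it reversed Gpx4 (-0.19), Sod1 (-0.063), Sod2 (-0.030), Lap3 (-0.11) and Gpx7 (-0.0030). For VHL/FIH null minus wild type it reversed Keap1 (-0.24), Me1 (-0.046), Gsta4 (-0.11), Gpx1 (-0.17), Sod1 (-0.064), Sod2 (-0.30), Bach1 (-0.28) and Glo1 (-0.019). For VHL/FIH null minus FIH null it reversed Me1 (-0.019), Gpx1 (-0.024) and Sod1 (-0.031). The mean of probe sets reversed Sod2 in VHL null (-0.041) and VHL/FIH null minus wild type (-0.12) and VHL/FIH null minus FIH null (-0.023), and centring per chromosome reversed Me1 (-0.0022) and Gpx1 (-0.0066) in the last. Apart from these shifts of scale, the cause was not tested. Slc7a11, Mgst1, Sod3 and Gpx3 lie near the filter value, so their differences are imprecise.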
